A study of Mus musculus with 16 samples.

Results

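Protocadherins are the largest family of cadherins, the calcium-dependent adhesion proteins. The 71 gene entries whose symbol begins with Pcdh, of 23420 in the count table, were described across 3 populations of mouse thymic epithelial cells. They comprised 15 entries of the alpha cluster, 22 of the beta cluster, 22 of the gamma cluster and 12 non-clustered genes, which lie outside the clusters. RNA had been sequenced from cortical thymic epithelial cells (cTEC) and from medullary cells with low (mTEClo) or high (mTEChi) levels of MHC class II, each from wild-type mice (WT) and from mice labelled psmb11 -/- (KO). Each genotype was represented by 2 cTEC libraries, 3 mTEClo libraries and 3 mTEChi libraries, 16 in all. Psmb11 encodes the thymoproteasome subunit beta5t of cTEC. Both genotypes carry the strain label C57BL/6-derived BAC, which the labels do not explain. The age is labelled as 6 to 8 weeks, and the series text speaks of 11 thymi, whereas the extraction protocol states 7-day-old C57BL/6 mice, 14 in number. How many animals a library pools was not stated, so the p-values measure the spread between these libraries, which may be technical.

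The clustered protocadherins are known mainly from neurons. Each alpha or gamma transcript joins 1 large variable exon, read from its own promoter, to constant exons shared by the whole cluster, while each beta gene is a single exon. Neurons choose promoters at random with the help of CTCF and cohesin, and the chosen proteins bind like to like across cell contacts, which lets neurites recognise those of the same cell. The last 3 genes of the gamma cluster and the last 2 of the alpha cluster are C-type genes, which escape this random choice. The non-clustered genes act in adhesion and cell sorting in many tissues. In the thymus, mTEChi are the cells that express Aire and display genes of other tissues to developing T cells.

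Cells had been sorted as CD45-negative and EpCAM-positive, with Ly51 marking cTEC and the lectin UEA1 marking medullary cells. Total gene counts ran from 64753610 to 146707262 per library, so that 3 counts over the libraries of a group corresponded to at most 0.0206 CPM, the unit in which a gene's reads are given relative to the TMM-adjusted size of its library. Aire lay between 1251 and 1642 CPM in mTEChi and between 8.14 and 18.5 CPM in mTEClo. Prss16, a cortical protease gene, was at 426 CPM or more in each cTEC library and lower in each medullary library. Of 10 cTEC markers, 10 were called higher in WT cTEC than in mTEClo, but 6 higher and 3 lower than in mTEChi. In WT mTEChi against mTEClo, 7 of them were higher and 1 lower, and of 9 medullary markers tested 8 were higher and 1 lower. In WT cTEC 7 of these 9 were lower than in mTEClo, and Aire was not called. In these contrasts 44.9%, 74.3% and 80.9% of all genes were called, in the order given. Psmb11 was at 170 and 139 CPM in cTEC WT and fell to 2.11 and 0 CPM in the cTEC KO libraries; the WT libraries held 8.06 to 13.0 CPM in mTEClo and 8.57 to 11.8 CPM in mTEChi, and the KO libraries 1.11 to 1.63 and 0.715 to 1.12 CPM. The cTEC libraries varied most, with a biological coefficient of variation of 0.652 against 0.131 in mTEClo and 0.113 in mTEChi. In cTEC KO 2, 8541 genes and 29 of the 71 protocadherin entries had no count, against 12 to 17 entries in the other cTEC libraries and 3 to 9 in the medullary ones.

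The beta and gamma genes lay next to each other on chromosome 18 in the mm10 build, beta at 37264998 to 37521419 and gamma at 37661945 to 37822134, downstream of the alpha cluster at 36930285 to 37187660. In the deposited coordinates each gamma entry spanned its variable exon alone, 2364 to 2961 bases long, and none reached the constant exons. The length implied by the authors' RPKM (library-scaled reads divided by the length of the gene), relative to that span, was alike in the single-exon beta genes (median 1.26) and in the gamma genes (1.27), so the gamma values describe variable exons. Among the alpha entries, Pcdha2 had a span that begins after Pcdha1 and runs past the start of Pcdhac2, and Pcdha4 had a span of 52 bases. Variable exons lie within introns of transcripts that start upstream, and the library kit does not mark strand, so reads from an unspliced longer transcript or from 12 annotated antisense genes over 17 members could not be told apart from a member's own. Of those 12, 2 were in the count table, at 0.483 CPM or less in any library. Members of a cluster also resemble each other. Windows of 50 bases found in an annotated transcript of another member were counted. For alpha and gamma genes only the first, variable exon was searched, so the constant exons shared by the whole cluster are left out. Such windows made up a median of 14.7% of an alpha and 0.811% of a gamma variable exon. Several gamma genes were well above this median, among them Pcdhga4 (39.5%), Pcdhgb2 (17.9%), Pcdhgb1 (16.8%) and Pcdhgb6 (11.9%). Over whole transcripts the median was 4.27% for beta genes, and the share was 0% in each non-clustered gene. Reads counted as ambiguous, 0.541% to 0.887% per library, were set apart and given to no gene. The authors' settings for reads that align to several places are not given in the sources used here.

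The alpha, beta and gamma clusters differed in summed CPM by far more than the libraries of a group did. CPM is not divided by gene length, so long genes weigh more in these sums. The gamma and non-clustered sums can therefore not be ranked per length, and in WT cTEC they lay within their spread. In WT mTEClo the 22 gamma genes summed to 229.6 ± 9.95 CPM (SD, n = 3), the 22 beta genes to 112.3 ± 4.05 CPM and the 15 alpha entries to 2.17 ± 0.162 CPM, while the 12 non-clustered genes summed to 368.2 ± 2.49 CPM. In WT mTEChi the sums were 127.2 ± 7.65 CPM for gamma, 23.9 ± 1.72 CPM for beta, 1.77 ± 0.268 CPM for alpha and 437.2 ± 22.5 CPM for the non-clustered genes. In WT cTEC (n = 2) they were 207.7 ± 13.7, 57.2 ± 0.0917, 0.812 ± 0.671 and 202.1 ± 16.8 CPM. The beta sum was thus 4.70 times as high in mTEClo as in mTEChi and 1.96 times as high as in cTEC, and the gamma sum 1.81 and 1.11 times. In bulk samples such as these, fewer cells of a type and less RNA per cell cannot be told apart.

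**Figure D1:**
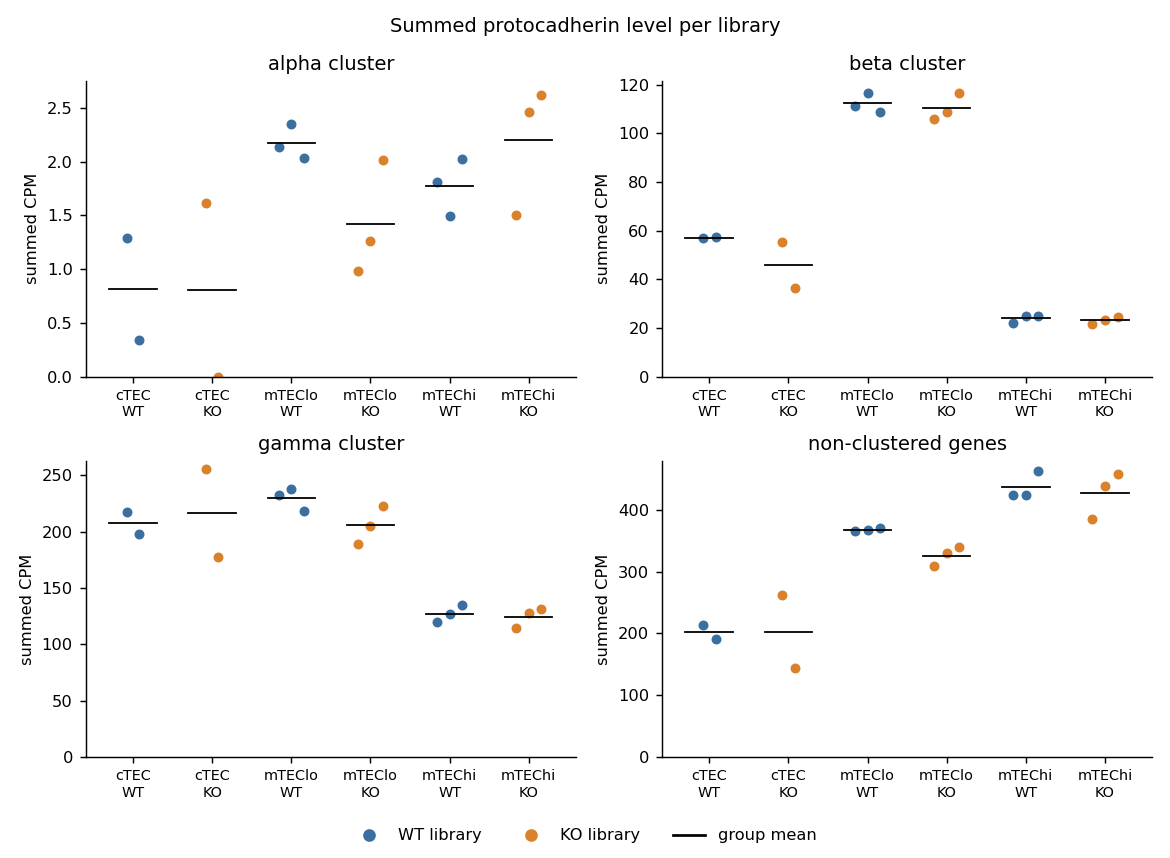
Summed level in CPM of the alpha, beta, gamma and non-clustered protocadherin genes in each library. Points are libraries (WT blue, KO orange), bars are group means over 2 (cTEC) or 3 libraries, and each panel has its own scale from 0; the beta sums of the 6 mTEChi libraries all lie below those of every other library.

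The beta genes were lower in mTEChi than in mTEClo almost without exception, and the same 20 genes were called in WT and in KO. Of the 61 protocadherins that passed the filter on low counts in the WT comparison, 46 were lower in mTEChi and 8 higher by edgeR's quasi-likelihood test with Benjamini-Hochberg adjustment. The populations differ widely: of 19256 genes tested, 80.9% were called, 43.0% higher and 37.9% lower. Of the 22 beta genes, 20 were lower and none higher, with a median log2 fold change of -2.13 beside 0.06 for all genes. In KO, which shares no library with WT, 40 of the 60 protocadherins tested were lower and 9 higher, beside 78.4% of 19344 genes called (42.2% higher, 36.2% lower), and the beta median was -2.29. All 40 lower calls in KO were among the 46 in WT, a share of 87.0% of the WT list. The matching share over all genes was not counted, here and below. With so many genes called in both genotypes, any list would share many calls.

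Pcdhb17, the beta gene with the highest mean CPM over the groups, was at 19.7, 21.2 and 22.3 CPM in the WT mTEClo libraries and at 5.02, 5.25 and 5.40 CPM in the WT mTEChi libraries. The KO libraries gave 18.0, 21.7 and 20.7 CPM in mTEClo and 4.44, 4.60 and 4.77 CPM in mTEChi. The groups were well apart in both genotypes, with fold changes of -2.01 (log2; SE 0.10, edgeR adjusted p = 4.12e-09) in WT and -2.11 (SE 0.12, adjusted p = 1.29e-07) in KO. Pcdhb20 fell from 13.3 ± 0.443 to 2.51 ± 0.798 CPM in WT (SD, n = 3 each). Pcdhb22, the last gene of the cluster, fell from 10.6 ± 1.29 to 2.52 ± 0.371 CPM. Both were also called in KO, as was Pcdhb19, with a log2 fold change of -2.39 in WT and -2.27 in KO.

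Pcdhb9, from the middle of the cluster, had the largest fall of the beta genes in KO and, after Pcdhb6, in WT. Its WT libraries held 9.12, 9.77 and 8.21 CPM in mTEClo and 0.759, 0.289 and 0.487 CPM in mTEChi, and its KO libraries 10.1, 9.74 and 10.9 against 0.657, 0.529 and 0.609 CPM. No mTEChi library came near an mTEClo library. The log2 fold change was -4.17 in WT (SE 0.29, adjusted p = 7.26e-08 by edgeR) and -4.07 in KO (SE 0.18, adjusted p = 2.09e-08). Its neighbours Pcdhb6, Pcdhb7 and Pcdhb8 had WT log2 fold changes of -4.44, -2.85 and -3.54, the first and the last from fewer reads (SE 0.64 and 0.86). Pcdhb5, just upstream of them, fell by 0.73 on the log2 scale (SE 0.29, adjusted p = 0.0391); it, Pcdhb6 and Pcdhb8 are named here after their values were seen. The beta genes not called in either genotype were the first 2 of the cluster, Pcdhb1 and Pcdhb2, whose means were 0.301 CPM or less in each group.

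In the gamma cluster the fall was smaller towards the 3′ end. Of the 22 genes, 20 were called lower in mTEChi in WT and 18 in KO, all 18 of them among the WT calls. The median log2 fold change in WT was -1.60 over the first 10 genes, -1.04 over the next 9 and -0.26 over the 3 C-type genes at the end. In KO the medians were -1.53, -0.84 and -0.01. Across the 22 genes, Spearman's correlation of the log2 fold change with the order along the cluster was 0.868 in WT and 0.857 in KO. These describe genes and not samples, and neighbouring genes share sequence and libraries. The same correlation was -0.209 and -0.133 in the beta cluster.

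Pcdhgb1, the fourth gene of the cluster, had the largest fall among the gamma genes in WT. Its WT mTEClo libraries held 8.16, 7.19 and 8.31 CPM and its mTEChi libraries 1.69, 1.26 and 1.38 CPM. The groups did not overlap, with log2 fold changes of -2.45 in WT (SE 0.18, edgeR adjusted p = 1.10e-07) and -1.92 in KO (SE 0.19, adjusted p = 8.83e-06). Pcdhga3 fell by 2.08 on the log2 scale in WT and by 2.29 in KO. Pcdhga4 fell by 2.05 and 1.82, and its annotated transcripts overlap those of Pcdhgb1 on the same strand. Pcdhga5 and Pcdhga6, further along, fell by 1.66 and 1.95 in WT.

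Pcdhgc3, the first C-type gene, was the most abundant clustered protocadherin per length, at 22.8 ± 0.898 RPKM in WT mTEClo, 19.0 ± 1.60 RPKM in WT mTEChi (n = 3 each) and 21.8 ± 0.738 RPKM in WT cTEC (n = 2). It made up 34.8% of the gamma sum in CPM in WT mTEClo and 46.8% in WT mTEChi. In CPM it read 80.7, 83.4 and 75.9 in the WT mTEClo libraries and 54.1, 59.1 and 65.3 in the WT mTEChi libraries. It was called lower in mTEChi in both genotypes, by a log2 fold change of -0.42 in WT and -0.43 in KO. The other two C-type genes were not called: Pcdhgc4 had log2 fold changes of -0.10 in WT (SE 0.15) and 0.28 in KO (SE 0.16), and Pcdhgc5 -0.26 and -0.01. Pcdhgb6 and Pcdhga10, next in mean CPM over the groups, lie in the 3′ part of the cluster. Pcdhgb6 fell from 18.7 ± 1.72 to 8.34 ± 1.03 CPM in WT (n = 3 each), and Pcdhga10 from 13.7 ± 1.25 to 8.16 ± 1.03 CPM.

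**Figure D2:**
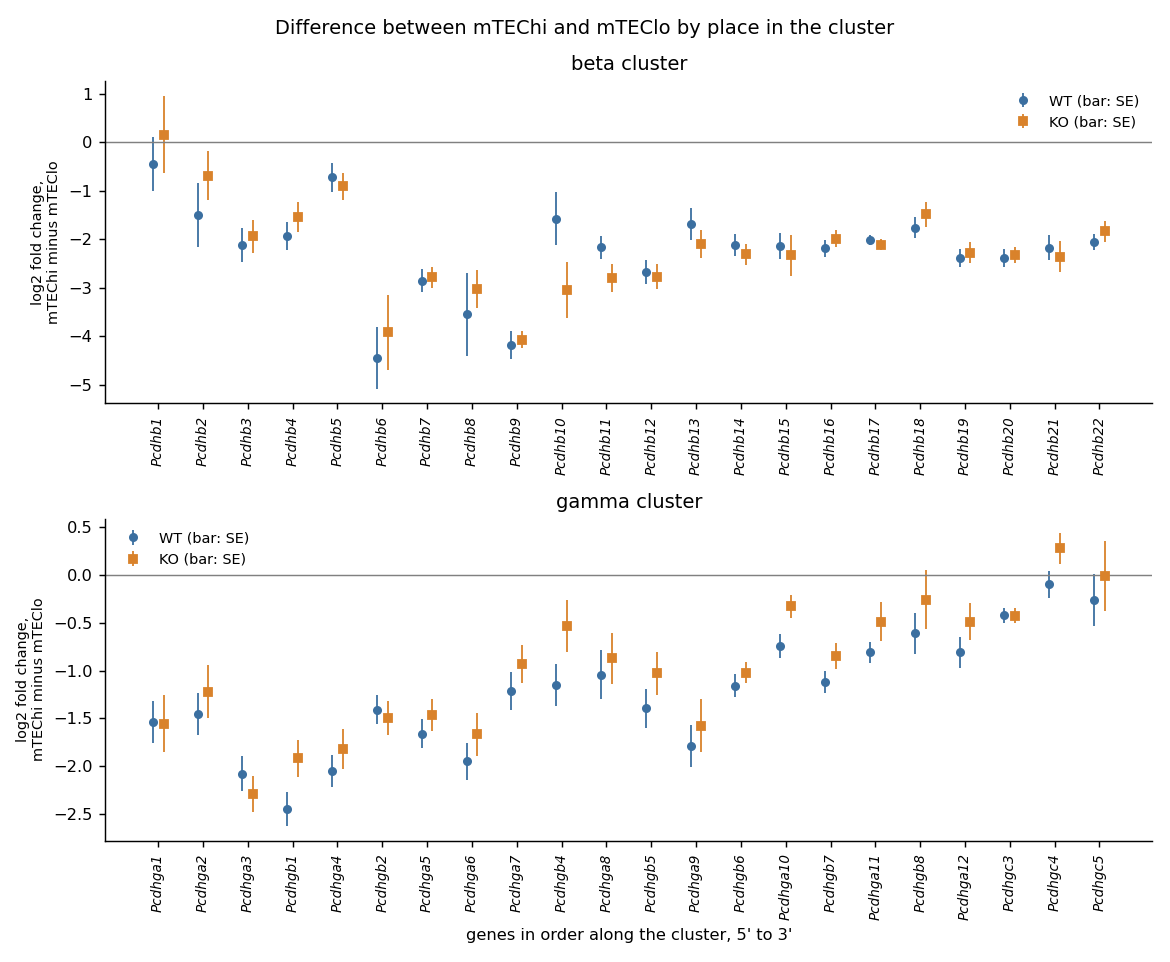
Log2 fold change of mTEChi against mTEClo for each beta (top) and gamma gene (bottom), in order from the 5′ to the 3′ end of the cluster. Circles are WT and squares KO, each from 3 against 3 libraries with bars of 1 SE. In WT the first 10 gamma genes lie between -2.45 and -1.15 and the 3 C-type genes at the end between -0.42 and -0.10. Most beta genes lie near -2 and Pcdhb6 to Pcdhb9 below.

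Alpha genes were close to the limit of detection. Pcdha12 and Pcdhac2 had the highest means, 0.460 and 0.467 CPM over the 6 groups. Of the 15 entries, 5 could be tested in the WT comparison of mTEChi with mTEClo. Pcdhac2, a C-type gene, was higher in mTEChi, at 0.854, 0.910 and 0.817 CPM against 0.353, 0.361 and 0.0436 CPM in WT (log2 fold change 1.77, SE 0.57, adjusted p = 0.0136 by edgeR) and at 0.338, 1.14 and 1.38 against 0.194, 0.330 and 0.209 CPM in KO (1.98, SE 0.55, adjusted p = 0.00784). The groups did not overlap in either genotype, though in KO their nearest libraries, at 0.338 and 0.330 CPM, were almost equal. Pcdhac1, the other C-type gene, was called higher in KO mTEChi (log2 fold change 4.15, SE 0.97, adjusted p = 0.00281), where its libraries held 0.135, 0.361 and 0.254 CPM and those of KO mTEClo 0, 0 and 0.0397 CPM. It did not pass the low-count filter in WT, and in KO it passed only through the mTEChi libraries, where it is high. Pcdha9 and Pcdha10 went the other way in WT, with log2 fold changes of -1.84 and -2.35 (adjusted p = 0.00953 and 0.0152), and neither was called in KO. In the fit of all 16 libraries together the calls of Pcdhac2, Pcdha9 and Pcdha10 were lost (adjusted p = 0.228, 0.0604 and 0.173 in WT). The KO call of Pcdhac2 was lost there too (adjusted p = 0.184 by edgeR).

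Unlike the beta and gamma genes, most non-clustered genes were higher in mTEChi. Of the 12, 7 were called higher in mTEChi in WT, Pcdh8, Pcdh9, Pcdh10, Pcdh11x, Pcdh12, Pcdh15 and Pcdh17, and the same 7 in KO. Another 4 were lower in WT, Pcdh1, Pcdh18, Pcdh19 and Pcdh20, of which Pcdh18 and Pcdh20 were also lower in KO. Pcdh7, the most abundant, was not called in either. Per length in WT mTEChi, Pcdh7 stood at 14.1 ± 0.633 RPKM (n = 3), Pcdh17 at 8.26 ± 0.272, Pcdh1 at 6.61 ± 1.06, Pcdh8 at 4.15 ± 0.414 and Pcdh10 at 3.07 ± 0.511 RPKM, and the others were at 1.87 RPKM or less.

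Pcdh8 (chromosome 14, 79766772 to 79771312), also known as arcadlin, is an activity-regulated adhesion protein of synapses. Its WT mTEClo libraries held 2.81, 2.47 and 1.92 CPM and its WT mTEChi libraries 17.8, 20.7 and 22.1 CPM, while the KO libraries held 1.20, 1.91 and 1.79 against 18.3, 20.7 and 20.4 CPM. The ranges were far apart, with an 8.42-fold difference in WT (log2 fold change 3.07, SE 0.15, adjusted p = 4.09e-09 by edgeR) and 12.3-fold in KO. Pcdh10 (chromosome 3, 45378398 to 45434579), or OL-protocadherin, guides axons of the forebrain. It read 7.37, 4.06 and 6.64 CPM in WT mTEClo and 44.8, 34.4 and 47.3 CPM in WT mTEChi, 7.02-fold higher in WT (adjusted p = 7.26e-08) and 8.62-fold in KO.

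Pcdh15 (chromosome 10, 73821867 to 74649732) encodes the partner of Cdh23 in the tip link that opens the mechanosensory channels of inner ear hair cells. Its level was 4.93, 6.10 and 6.25 CPM in WT mTEClo and 35.6, 35.6 and 33.9 CPM in WT mTEChi, a 6.09-fold difference (log2 fold change 2.61, SE 0.10, adjusted p = 5.44e-10 by edgeR). Pcdh12 (chromosome 18, 38267092 to 38284401), or VE-cadherin-2, is a protein of endothelial and trophoblast cells. It read 1.26, 1.15 and 1.06 CPM in WT mTEClo and 12.3, 12.5 and 13.2 CPM in WT mTEChi, 11.0-fold higher (adjusted p = 8.93e-10). The summed levels of 8 endothelial markers overlapped between the populations. They were 75.8 to 103.6 CPM in the WT mTEClo libraries and 76.9 to 106.9 CPM in the WT mTEChi libraries. Of the 8, 1 was called higher and 2 lower in mTEChi in WT, and 3 higher and 1 lower in KO. Beside these, 80.9% and 78.4% of all genes tested were called. Cdh5, the vascular cadherin, differed by -0.26 on the log2 scale in WT (edgeR adjusted p = 0.392). The part of these markers in the difference of Pcdh12 was not tested.

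Pcdh9 (chromosome 14, 93013700 to 93890669), a delta-type protocadherin of the nervous system, was at 0.600 CPM or less in each library outside mTEChi. Its WT libraries held 0.0684, 0.329 and 0.327 CPM in mTEClo and 4.34, 4.05 and 3.40 CPM in mTEChi (log2 fold change 4.01, SE 0.41, adjusted p = 2.35e-06 by edgeR). Pcdh11x (X chromosome, 120290327 to 120910618) was the rarest of the 12. It had 0, 4 and 4 counts in WT mTEClo and 62, 163 and 14 counts in WT mTEChi, with a spread within mTEChi from 0.201 to 1.15 CPM. Pcdh17 (chromosome 14, 84443563 to 84537060), another delta-type gene, differed little, at 71.1, 68.2 and 73.6 CPM in WT mTEClo against 90.7, 98.7 and 96.3 CPM in WT mTEChi (1.35-fold, adjusted p = 2.97e-05).

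Of the genes lower in mTEChi, Pcdh18 (chromosome 3, 49743296 to 49757316), a delta-type protocadherin, had its highest levels in the cortex. It was at 57.1 and 48.5 CPM in WT cTEC, at 25.7, 26.3 and 28.2 CPM in WT mTEClo and at 8.13, 9.41 and 8.99 CPM in WT mTEChi. The 3 WT ranges followed each other without overlap, and each step was called: 2.07-fold between cTEC and mTEClo (log2 fold change 1.05, SE 0.10) and 3.02-fold between mTEClo and mTEChi (adjusted p = 1.52e-08 by edgeR). In cTEC KO its libraries held 29.0 and 18.3 CPM, on either side of the mTEClo values. Pcdh20 (chromosome 14, 88464747 to 88471396) was highest in mTEClo, at 31.7, 34.9 and 39.5 CPM in WT. It was at 12.3, 8.02 and 13.1 CPM in WT mTEChi and 6.78 and 6.19 CPM in WT cTEC, so mTEClo stood alone in WT. The log2 fold changes were -1.67 for mTEChi against mTEClo (SE 0.16, adjusted p = 1.41e-06) and -2.38 for cTEC against mTEClo (SE 0.14).

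Pcdh1 (chromosome 18, 38196694 to 38209762), an adhesion protein of airway epithelium, was at 49.9 ± 6.67 CPM in WT mTEClo, 31.4 ± 5.23 CPM in WT mTEChi (n = 3 each) and 13.7 ± 3.22 CPM in WT cTEC (n = 2). It was called lower in mTEChi in WT (log2 fold change -0.67, SE 0.12) and not in KO (-0.30, adjusted p = 0.0595 by edgeR). Pcdh19 (X chromosome, 133582861 to 133688993), whose human counterpart is mutated in an epilepsy, was at 23.9 ± 1.28, 20.8 ± 1.61 and 4.30 ± 3.32 CPM in the same order. Its call in WT mTEChi, a log2 fold change of -0.20, was lost with RLE factors and in 8 other alternatives. Pcdh7 (chromosome 5, 57718021 to 58132240), a delta-type gene, was at 145.7 ± 5.01, 155.1 ± 8.66 and 87.4 ± 7.98 CPM, and its difference between the medullary populations was within the spread of the libraries (log2 fold change 0.09, adjusted p = 0.158).

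**Figure D3:**
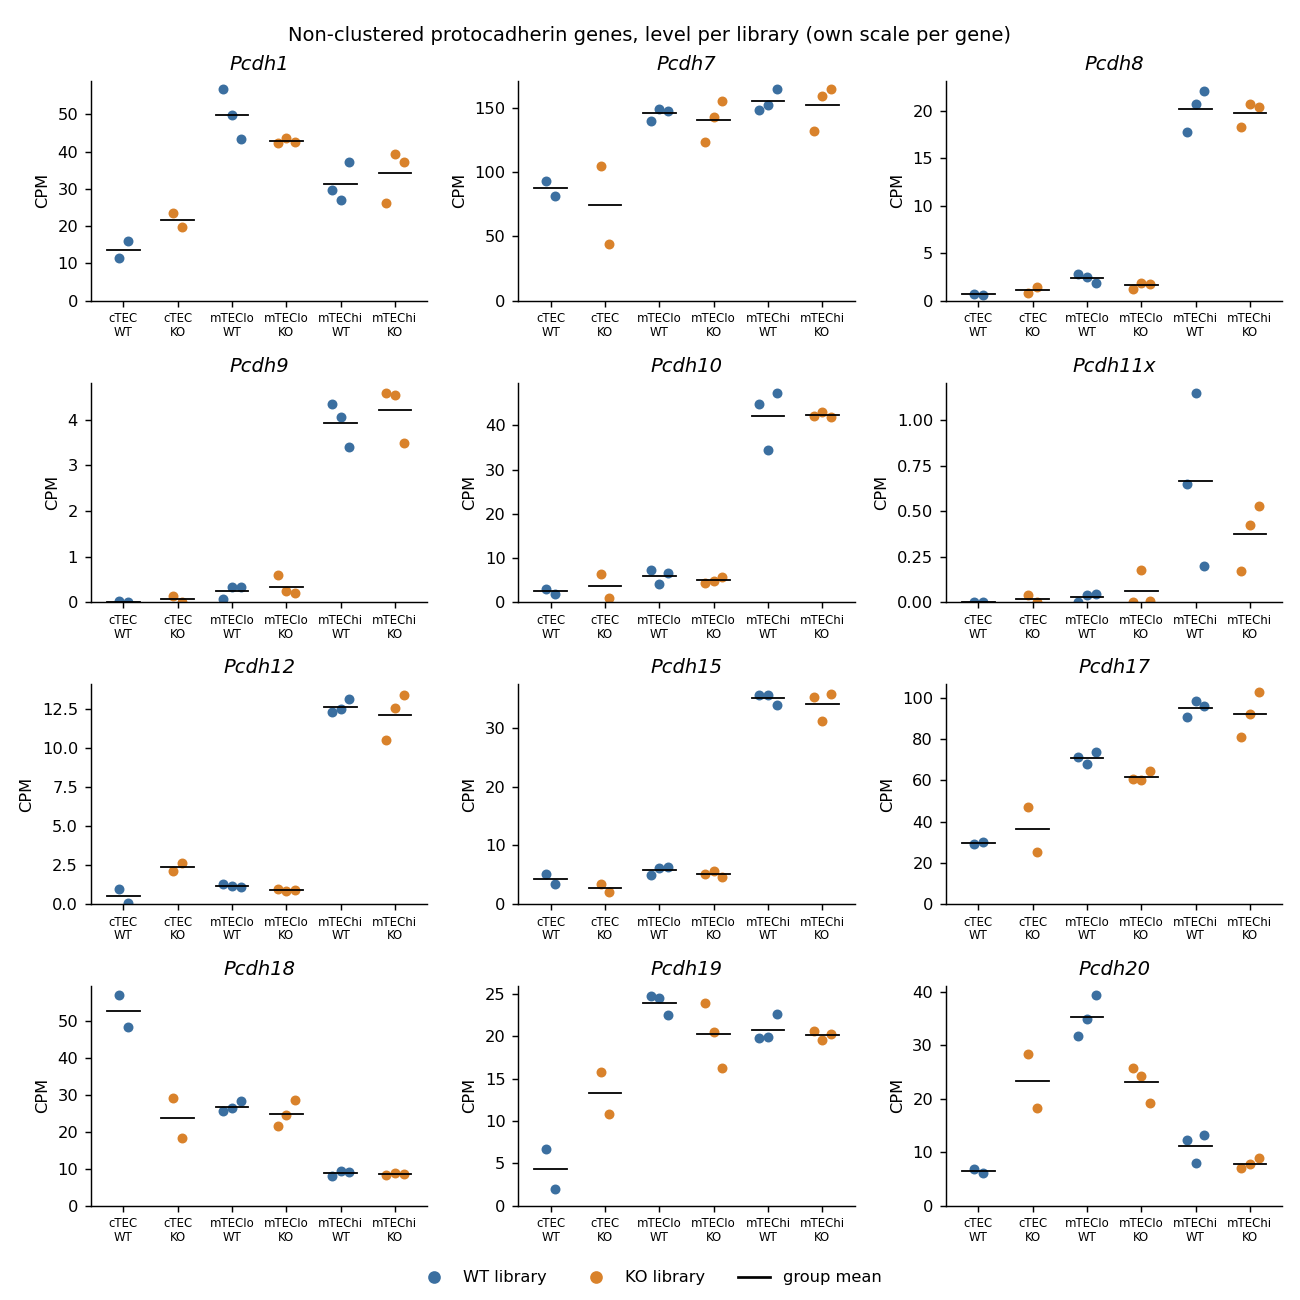
Level in CPM of the 12 non-clustered protocadherin genes in each library, each gene on its own linear scale from 0. Points are libraries (WT blue, KO orange) and bars are group means over 2 or 3 libraries; Pcdh8, Pcdh9, Pcdh10, Pcdh12 and Pcdh15 stand out in the mTEChi libraries of both genotypes, while Pcdh20 stands out in mTEClo among the WT groups and Pcdh18 in cTEC WT.

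The promoters of 4 non-clustered genes are given to set members that were higher in mTEChi beside members that were lower. Each sequence is the RefSeq window from 250 bases before to 50 after the gene's start on GRCm38.p6, 5′ to 3′ on the gene's strand, with CG dinucleotides in capitals. Pcdh8 lies at chr14:79771263-79771562 on the minus strand, Pcdh10 at chr3:45378148-45378447 on the plus strand, Pcdh18 at chr3:49757267-49757566 on the minus strand and Pcdh20 at chr14:88471347-88471646 on the minus strand.
Pcdh8, higher in mTEChi: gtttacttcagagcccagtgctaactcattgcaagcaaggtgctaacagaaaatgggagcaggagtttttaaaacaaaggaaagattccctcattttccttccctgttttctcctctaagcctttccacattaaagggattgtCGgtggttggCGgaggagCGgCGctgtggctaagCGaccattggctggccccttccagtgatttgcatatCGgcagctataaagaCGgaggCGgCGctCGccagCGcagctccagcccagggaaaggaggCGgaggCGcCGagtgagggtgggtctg
Pcdh10, higher in mTEChi: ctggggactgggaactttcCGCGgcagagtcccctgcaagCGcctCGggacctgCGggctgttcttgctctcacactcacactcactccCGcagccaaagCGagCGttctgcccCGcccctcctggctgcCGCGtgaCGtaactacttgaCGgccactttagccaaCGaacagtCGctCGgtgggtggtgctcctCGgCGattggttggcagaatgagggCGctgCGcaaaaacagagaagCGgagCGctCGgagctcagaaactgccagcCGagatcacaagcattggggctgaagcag
Pcdh18, lower in mTEChi: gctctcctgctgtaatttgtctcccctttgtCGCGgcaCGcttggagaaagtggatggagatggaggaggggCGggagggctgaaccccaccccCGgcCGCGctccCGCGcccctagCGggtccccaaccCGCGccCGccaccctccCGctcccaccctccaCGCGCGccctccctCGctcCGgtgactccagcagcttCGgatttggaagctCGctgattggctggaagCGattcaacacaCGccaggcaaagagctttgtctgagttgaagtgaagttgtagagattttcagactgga
Pcdh20, lower in mTEChi: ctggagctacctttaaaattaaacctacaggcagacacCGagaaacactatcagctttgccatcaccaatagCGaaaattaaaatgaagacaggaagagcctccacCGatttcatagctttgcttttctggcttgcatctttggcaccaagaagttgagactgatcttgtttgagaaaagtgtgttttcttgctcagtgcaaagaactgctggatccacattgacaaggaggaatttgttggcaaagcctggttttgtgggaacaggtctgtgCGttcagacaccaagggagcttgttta
The windows held 14, 24, 23 and 4 CG dinucleotides in that order. Over all 32851 promoter windows of the same 300 bases the median was 7, with quartiles of 3 and 20, and 26.5% held 20 or more. Both directions of change thus include a CG-rich promoter. RefSeq windows of 9 of the 12 non-clustered genes were tallied, while Pcdh1, Pcdh11x and Pcdh12 were not included. Among the rest of the 9, the counts were 26 in Pcdh17, 18 in Pcdh19, 18 or 19 in the windows of Pcdh9, 11 in Pcdh7 and 8 in Pcdh15. The letters TATAAA, searched on both strands, were found in the windows of Pcdh8 and Pcdh15 among the 9, and in 13.6% of all windows; a CG cannot overlap it.

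In WT cTEC, the protocadherins that differed from mTEClo were mostly lower. Of 60 tested, 22 were lower and 3 higher, beside 44.9% of 17213 genes called (24.1% lower, 20.9% higher). Of the 22 beta genes, 10 were lower and none higher, with a median log2 fold change of -1.17 beside -0.02 for all genes. The gamma genes were near mTEClo levels (median -0.05, 2 higher and 2 lower), and 8 of the 11 non-clustered genes tested were lower. Pcdhb22, the last beta gene, was at 8.95 and 8.22 CPM in cTEC against 10.8, 11.8 and 9.22 CPM in mTEClo (log2 fold change -0.23, not called), whereas Pcdhb9, in the middle, was at 0.783 and 2.02 CPM (-2.61, SE 0.38, adjusted p = 8.62e-04 by edgeR, and 0.0660 in the fit of all 16 libraries). Pcdhb7, Pcdhb12, Pcdhb11 and Pcdhb16 had log2 fold changes of -1.88, -1.68, -1.51 and -1.02 and Pcdhb17 of -0.86, each called. The calls of Pcdhb7, Pcdhb11, Pcdhb16 and Pcdha8 were lost both in the fit of all 16 libraries and by voom, and those of Pcdhb12, Pcdh7, Pcdh8 and Pcdha9 were kept in that fit and lost by voom. Across the 22 beta genes the log2 fold change correlated with the order at Spearman's rho of 0.708 in WT and 0.360 in KO, and the mean RPKM with the order at 0.858 in WT cTEC and 0.719 in WT mTEClo, again as descriptions across genes.

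Of the C-type gamma genes, Pcdhgc4 was called between cTEC and mTEClo, with 3.01 and 2.96 CPM in WT cTEC against 8.85, 7.72 and 8.95 CPM in WT mTEClo (log2 fold change -1.44, SE 0.18, adjusted p = 3.98e-04 by edgeR). Pcdhga6 was slightly higher in cTEC, at 7.48 and 7.30 against 5.41, 5.42 and 5.08 CPM (0.55, SE 0.16, adjusted p = 0.0245). The other calls in this cluster were Pcdhga10, higher by 0.34 on the log2 scale, and Pcdhgb1, lower by a log2 fold change of -0.76. These 4 calls were lost in the fit of all 16 libraries and by voom, and all but that of Pcdhgc4 without any 1 mTEClo library. Pcdh17, with 29.2 and 29.9 CPM in WT cTEC, was 2.29-fold lower than in mTEClo, and Pcdh19 5.33-fold. Pcdha9 had no count in either WT cTEC library and 109 counts over the WT mTEClo libraries, which makes it at least 24.1-fold higher there against a floor of 3 counts over the cTEC group. For genes with 2 or 3 counts in WT cTEC the ratio of mTEClo to cTEC was 18.5 for Pcdha8 (95% counting interval 4.90 to 157), 17.9 for Pcdhb2 (5.90 to 88.5) and 14.8 for Pcdh9 (4.85 to 73.5); such bounds and intervals cover counting error only. The count of 25 calls was 12 in the fit of all 16 libraries, 8 by voom, 15 to 16 without any 1 of the mTEClo libraries and 38 without cTEC WT 1.

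Against mTEChi, WT cTEC had more of the beta and gamma and less of the non-clustered protocadherins. Of 61 tested, 25 were higher in cTEC and 13 lower, beside 74.3% of 19634 genes called (30.8% higher, 43.5% lower) and a median log2 fold change of -0.24 over all genes. In all, 16 gamma genes and 8 beta genes were higher, with median log2 fold changes of 1.14 and 1.01 over the 22 of each. Of the 12 non-clustered genes, 11 were lower and Pcdh18 was higher. Of the 5 alpha entries tested, Pcdha9 was lower and none higher, and the alpha median was -1.43; the call of Pcdha9, which had no count in WT cTEC, was lost by voom and with the replicate block (adjusted p = 0.115 and 0.393). Pcdhga6 had the smallest p among the gamma genes, at 7.48 and 7.30 CPM in cTEC and 1.19, 1.31 and 1.63 CPM in mTEChi (log2 fold change 2.43, SE 0.25, adjusted p = 1.64e-04 by edgeR). Pcdhb19 was at 6.33 and 5.14 CPM in cTEC against 1.28, 1.62 and 1.30 CPM (2.03, SE 0.27, adjusted p = 5.44e-04). Next by p, Pcdhga3, Pcdhga4, Pcdhga9, Pcdhgb6 and Pcdhga10 had log2 fold changes of 2.02, 1.97, 2.04, 1.07 and 1.01, and Pcdhb22, Pcdhb17, Pcdhb20, Pcdhb14 and Pcdhb6 of 1.77, 1.08, 1.59, 1.81 and 3.18. Pcdhgc4 again went the other way (-1.41, adjusted p = 0.00111), though this call was lost in the fit of all 16 libraries and by voom. Of the non-clustered genes, Pcdh8 was 29.4-fold and Pcdh10 16.9-fold lower in cTEC. Pcdh11x, with no count in WT cTEC, was at least 47.1-fold higher in mTEChi, and the ratio for Pcdh9 was 241 (82.3 to 1170).

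Between KO and WT no protocadherin passed the threshold in any population. In cTEC none of 56 tested was called, beside 0% of 16423 genes (2104 genes and 3 protocadherins had an unadjusted p under 0.05). In mTEClo none of 60 was called, beside 0.00586% of 17073 genes (2141 genes and 10 protocadherins unadjusted), and in mTEChi none of 60, beside 0.00510% of 19614 genes (822 and 2 unadjusted). The 1 gene called in each medullary population was Psmb11. In cTEC Psmb11 itself was not called, at a log2 fold change of -7.19 (adjusted p = 0.0855 by edgeR). The lack of calls in cTEC therefore cannot be read as a lack of change. The difference of the KO effect between mTEChi and mTEClo was not called for any of 62 protocadherins, beside 0.0101% of 19816 genes (0.00505% higher and 0.00505% lower; 3 protocadherins unadjusted). In cTEC the count was 7 in the fit of all 16 libraries, 2 with DESeq2, 2 without the low-count filter and 0 with voom, and in mTEClo it was 2 with DESeq2.

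In mTEClo the gamma genes all had negative log2 fold changes in KO, 22 of 22, with a median of -0.25 beside 0.00 for all genes. None passed the test, and the genes share the same 6 libraries. The gamma sum was 229.6 ± 9.95 CPM in WT and 205.5 ± 17.1 CPM in KO (SD, n = 3 each), with libraries that overlapped. The smallest p among them was that of Pcdhgc4, at 8.85, 7.72 and 8.95 CPM in WT and 5.80, 5.52 and 6.82 CPM in KO (log2 fold change -0.51, SE 0.13, adjusted p = 0.221 by edgeR). Pcdh20 was at 31.7, 34.9 and 39.5 CPM in WT and 25.8, 24.2 and 19.2 CPM in KO (-0.63, SE 0.13, adjusted p = 0.180). Of the 71 entries, 13 had all KO libraries below all WT libraries in mTEClo and none above, and in mTEChi 3 were below and none above. The members below made up 18.3% in mTEClo and 4.23% in mTEChi, where the same held for 6.14% and 4.0% of all 23420 gene entries; the share above was 8.70% and 4.14% of all entries. In mTEClo the summed tuft cell markers were also lower in KO, at 1634 to 2192 CPM against 2418 to 2558 CPM in WT, and their part in these differences was not tested.

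In cTEC, 10 entries had both KO libraries above both WT libraries and 7 had both below. These shares, 14.1% and 9.86% of the 71, lay near or under those of all gene entries, 15.0% and 17.5%. For 5 of the 71 entries KO was above WT in cTEC and below it in mTEClo without overlap; 1.38% of all gene entries had this pattern, and 4.83% had opposite directions in cTEC and either medullary population. Pcdh18 was at 57.1 and 48.5 CPM in WT and 29.0 and 18.3 CPM in KO (log2 fold change -1.15, SE 0.25, adjusted p = 0.152 by edgeR). Pcdh20 was at 6.78 and 6.19 CPM in WT and 28.3 and 18.3 CPM in KO (1.85, SE 0.32, adjusted p = 0.0942), and Pcdh19 at 6.65 and 1.95 against 15.8 and 10.8 CPM (1.66, SE 0.62, adjusted p = 0.348). The groups of these 3 genes did not overlap, and none passed the threshold. Tuft markers summed to 384 and 465 CPM in the WT cTEC libraries and to 822 and 1233 CPM in the KO ones, and Aire was at 13.7 and 10.6 CPM in WT and at 107 and 44.2 CPM in KO. Leaving out cTEC KO 1 gave 16 calls and leaving out cTEC KO 2 gave 2, each time with 1 KO library that was assumed to vary like the rest. The part of these markers in these differences was not tested.

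Library cTEC KO 2, in which 8541 genes had no count, the most of any library, lacked many beta genes. Of its 22 beta genes, 13 had 3 counts or fewer, and 6 that were present in the other 3 cTEC libraries had none: Pcdhb1, Pcdhb7, Pcdhb8, Pcdhb9, Pcdhb11 and Pcdhb21. Another 6 beta genes were higher there than in any other cTEC library, as were 2 of the 22 gamma genes. The matching shares over all genes were not counted, and with so few libraries each would be highest for many genes. Library cTEC KO 2 held 206 counts of Pcdhb10, while libraries WT 1, WT 2 and KO 1 of the same population held 0, 50 and 0, and Pcdhb6 had 199 counts against 33, 38 and 32. In the gamma cluster Pcdhga1, Pcdhgb5 and Pcdhgb8 had no count in cTEC KO 2, while Pcdhgb1 had 930 counts against 478, 323 and 242. All 15 alpha entries were at 0 there. The number of cells behind each library was not stated.

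**Figure D4:**
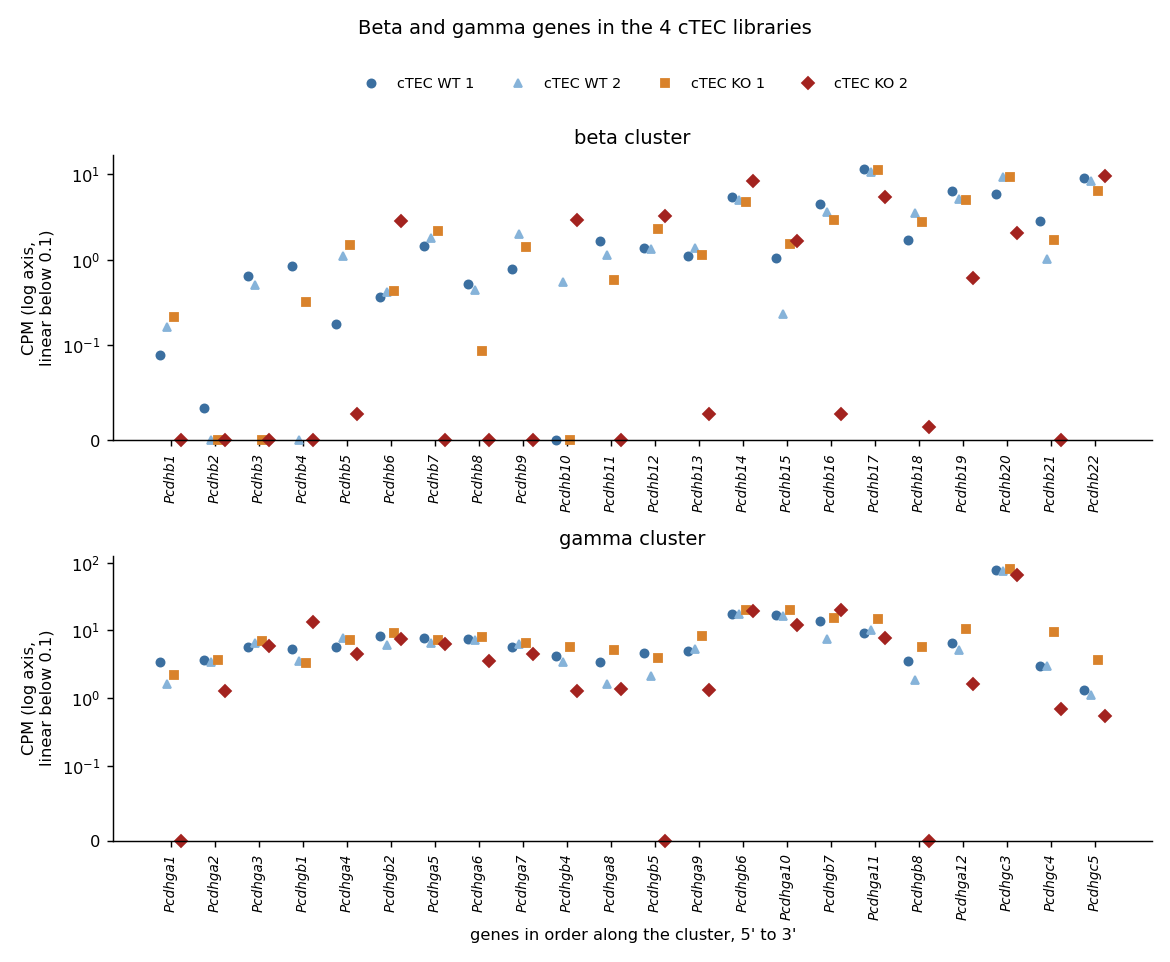
Level in CPM of each beta (top) and gamma gene (bottom) in the 4 cTEC libraries, in order along the cluster, on a log axis that is linear below 0.1. Each symbol is 1 library; cTEC KO 2 (red diamonds) is at or near 0 for 13 of the 22 beta genes and above the other 3 libraries for 6.

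The comparisons of KO cTEC with the medullary KO populations moved with single libraries. Against KO mTEClo, 2 of 59 protocadherins were lower and none higher, beside 6.19% of 17393 genes called (2.87% lower, 3.32% higher): Pcdh1 at 23.5 and 19.8 CPM against 42.3, 43.5 and 42.4 CPM (log2 fold change -0.90, SE 0.12, adjusted p = 0.0176 by edgeR), and Pcdhb3, which had no count in KO cTEC and was at least 78.0-fold higher in KO mTEClo. Leaving out cTEC KO 1 gave 38 calls, leaving out cTEC KO 2 gave 21, and leaving out any 1 mTEClo KO library gave 0. Against KO mTEChi, 14 of 59 were higher in cTEC and 9 lower, beside 46.7% of 19444 genes (20.7% higher, 26.0% lower), and the count of 23 was 50 and 51 without either cTEC library and 11 to 13 without any 1 mTEChi library. All 7 gamma genes called higher here were also called in WT, Pcdhgb7, Pcdhgb6 and Pcdhga3 first by p, and so were the 6 non-clustered genes called lower, Pcdh8, Pcdh9, Pcdh10, Pcdh12, Pcdh15 and Pcdh17. Beta genes went both ways: Pcdhb6, Pcdhb15, Pcdhb14, Pcdhb12 and Pcdhb22 were higher, with log2 fold changes of 5.08, 2.30, 2.28, 1.96 and 1.55, while Pcdhb2 and Pcdhb3 had no count in KO cTEC and were at least 9.32-fold and 20.5-fold higher in mTEChi. Pcdhac1, likewise without a count, was at least 11.8-fold higher there. Pcdh18 was higher in cTEC in KO as in WT (log2 fold change 1.47). Pcdh20 was higher in cTEC than in mTEChi in KO (log2 fold change 1.56, SE 0.26, adjusted p = 0.00819), and lower in WT (-0.78, adjusted p = 0.0238); the difference between these contrasts was not tested.

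Genes known to act on or with protocadherins were also compared between the medullary populations, where 80.9% of all genes tested were called in WT (43.0% higher, 37.9% lower) and 78.4% in KO, so most members of any list are called. Of 17 regulators of the clusters in the table, 12 were lower and 4 higher in WT mTEChi than in mTEClo (median log2 fold change -0.40), and 10 and 4 in KO. Ctcf, Dnmt3b and Ptk2b are named for their known roles. Rest, a repressor of neuronal genes, fell by 1.60 on the log2 scale in WT (SE 0.08, adjusted p = 2.88e-09 by edgeR), Stag1, a cohesin subunit, by 1.04 (SE 0.07) and Ctcf by 0.58 (SE 0.06), whereas the cohesin-associated Pds5b was higher by 1.00 (SE 0.08) and Dnmt3b, which methylates protocadherin promoters, by 0.85 (SE 0.11). Of 18 intracellular partners, 13 were lower and 3 higher in WT. Among them Pkp4, which encodes a junctional plaque protein, had a log2 fold change of -2.03 and Ptk2, the focal adhesion kinase, of -0.97, while Ptk2b, a related kinase that protocadherin tails bind, was higher by 1.24. Of 14 other non-classical cadherins and related cell-recognition proteins 6 were higher and 6 lower, Fat3 at -3.89 and Dscam at 4.12 being the extremes, and of 15 classical and desmosomal cadherins 6 were higher and 7 lower, with Cdh3 at -3.10 and Cdh16 at 6.33. Between WT cTEC and mTEClo, where 44.9% of all genes were called, 3 regulators were higher and 2 lower and 4 partners higher and 8 lower, and against mTEChi, where 74.3% were called, 11 and 3 regulators and 10 and 3 partners. In KO against WT none of these 4 lists had a member called in any population.

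Markers of other cell types moved with the contrasts between populations. The 8 tuft cell markers were all lower in WT mTEChi, summing to 394 to 539 CPM against 2418 to 2558 CPM in mTEClo, and also in WT cTEC, at 384 to 465 CPM. Of 10 fibroblast markers 5 were lower and 4 higher in mTEChi, with sums of 577 to 612 against 1154 to 1391 CPM, and in cTEC 6 were higher and 2 lower, at 1090 to 1394 CPM. The 9 markers of B cells, macrophages and dendritic cells were all higher in mTEChi, at 518 to 530 against 64.3 to 66.8 CPM in mTEClo and 33.5 to 66.8 CPM in cTEC. The 10 markers of nerve and Schwann cells summed to 122 to 137 CPM in mTEChi, 138 to 165 CPM in mTEClo and 62.8 to 67.9 CPM in cTEC, and in mTEChi 6 were higher and 2 lower. The 8 neuroendocrine markers summed to 744 to 828, 1006 to 1084 and 141 to 168 CPM in that order, with 3 higher and 4 lower in mTEChi and all 8 lower in cTEC than in mTEClo. The 11 thymocyte markers summed to 94.4 to 163, 63.4 to 98.0 and 107 to 147 CPM, with 5 higher and 1 lower in mTEChi and 5 higher in cTEC. No marker of these lists was at 0 in every library of a group. Their part in the differences of the protocadherins between the populations was not tested.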

How the data were processed

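RNA-seq of 16 mouse thymic epithelial libraries was used. The authors deposited raw read counts per gene and RPKM values; per the submitters' processing notes, the tools were CASAVA 1.8.2 and HTSeq 0.5.4p1 and the build mm10, while aligner, counting settings and gene annotation are not given in the sources used here. Gene totals ran from 64753610 to 146707262 counts per library, with 13.7% to 30.4% of reads in no gene and 0.541% to 0.887% ambiguous, both left out of tests.

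Members were the gene entries whose symbol starts with Pcdh, and they and all gene lists were chosen with earlier results of these data known. Counts were tested with edgeR 4.0.16 in R 4.3.3 (TMM factors, filterByExpr, glmQLFit and glmQLFTest, Benjamini-Hochberg adjustment over all genes tested, adjusted p under 0.05), fitted to the libraries compared. Fold changes come from this fit, and levels are CPM or the authors' RPKM. Text names every non-clustered gene, the 3 members of each cluster with the highest mean CPM, up to 6 called members per cluster, direction and comparison by p, and up to 4 per other list. Alternatives were a fit of all 16 libraries, voom with quality weights (limma 3.58.1), DESeq2 1.42.0, RLE factors, no low-count filter, a replicate block and leaving out each library. The test script was checked on simulated data. A group with no count was given a floor of 3 counts over the group, and counting intervals are exact 95% intervals.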

Additional observations from a re-analysis of the deposited data

Results flagged for a closer look

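For 5 genes, every KO library lay above every WT library in cTEC and below every WT library in mTEClo. The log2 ratio of KO to WT mean CPM was 2.22 in cTEC and -0.34 in mTEClo for Pcdh12, 1.85 and -0.62 for Pcdh20, and 0.70 and -0.56 for Pcdh8. It was 1.31 and -0.42 for Pcdhb15 and 0.74 and -0.36 for Pcdhgb7. They were 7.04% of the 71 entries. Opposite directions without overlap in cTEC and a medullary population were found in 4.83% of all 23420 gene entries, and in 1.38% with KO higher in cTEC and lower in mTEClo. The difference between the populations was not tested, and no gene of the 5 was called between KO and WT in either population. The cTEC values rest on 2 libraries per genotype.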

How the results depend on the processing

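Of 1266 named values under alternatives, 1140 kept their direction and side of the threshold, 126 (35 genes) kept the direction and lost the call, and none reversed. The calls between mTEChi and mTEClo moved least: 54 in WT became 49 to 53 without 1 library and 39 to 55 otherwise, and 49 in KO became 45 to 50 and 37 to 51. For KO against WT in cTEC, 0 calls became 7 in the fit of all 16 libraries, 2 with DESeq2, 2 without a low-count filter and 0 to 16 without 1 library. In mTEClo 0 became 2 with DESeq2. In mTEChi, and for the difference of the KO effect, the count was 0 under each alternative. The 25 calls between WT cTEC and mTEClo became 12 in the fit of all 16 libraries, 8 by voom and 15 to 38 without 1 library. The 38 between WT cTEC and mTEChi became 31 to 43 without 1 library. The 2 between KO cTEC and mTEClo became 13, 8 by voom, 10 with DESeq2 and 0 to 38, and the 23 between KO cTEC and mTEChi 38 in the fit of all libraries and 11 to 51 without 1 library. Same-numbered libraries showed little shared deviation from their group means (correlations of -0.030 to 0.071). With 2 or 3 libraries per group this check cannot exclude that same-numbered libraries belong together, and the labels do not say. With the replicate block the counts of these 5 cTEC comparisons were 3, 16, 22, 1 and 2, in the order given. RLE factors moved the median named log2 fold change by -0.057 to 0.057 and changed no sign. The cause of these shifts was not tested. Testing was most limited in the alpha cluster, where 5 of 15 entries passed the low-count filter between WT mTEChi and mTEClo.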
